A study of Mus musculus with 4 samples.

Results

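BMP, TGF-β and SMAD signalling genes were examined in the chromatin of mouse embryonic hearts without SMYD1, a muscle protein that can methylate histones. The group holds 37 genes named by their role, out of 21938 annotated protein-coding genes outside the mitochondrial genome. They are 10 ligands, 12 receptors and co-receptors, 8 SMADs, 3 antagonists and the 4 ID genes, which are targets of the pathway. All 37 were found by symbol in GENCODE release M21. Accessible chromatin was measured by ATAC-seq, in which the Tn5 transposase inserts adapters into open DNA, in whole hearts at embryonic day 9.5 (E9.5). The groups were wild-type (WT) hearts and *Smyd1-KO* hearts, which came from a germline null allele kept in *Smyd1* heterozygous mice and so lacked the gene in every cell of the embryo. Each genotype had 2 libraries, and each library was a pool of 4 cryopreserved hearts from which 40000 viable cells were taken.

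The deposited values were 2 lists of peaks of 149 bp that differed at least 2-fold between the genotypes, 25745 of them higher in *Smyd1-KO* hearts (gained peaks) and 106 higher in WT hearts (lost peaks). Each peak carried 1 score and none per library. In the gained peaks it came in steps of 0.5. What the score counts is not given in the sources used here, so it is read only as the strength of a peak and printed in units of the score. The scores and counts therefore carry no replicate error, and no difference was tested. The study's methods give 1 sequencing depth for all ATAC-seq libraries, and the reads obtained per library are not in the files analysed here. A gene without a gained peak may be closed in both genotypes, equally open in both or different by less than 2-fold, since the lists used here hold only peaks past that cutoff. More open chromatin per cell and more cells of a type with open chromatin cannot be told apart in whole hearts. The lists hold differences between genotypes and no level in either, so the heart label could not be checked against them. Gained peaks stood near a transcription start site (TSS, within 3 kb) of 9 of 10 cardiomyocyte markers, *Nkx2-5* being the exception, beside 51.2% of all protein-coding genes.

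BMP and TGF-β ligands are secreted dimers that bring together type I and type II serine/threonine kinase receptors. The type I receptor phosphorylates receptor-regulated SMADs, which join SMAD4 and enter the nucleus, where ID genes are among the best known BMP targets. In the embryonic heart the pathway is known for its part in specifying the myocardium, in chamber growth and in forming the endocardial cushions.

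A gained peak was found no more than 3 kb from an annotated TSS for 28 of the 37 genes (75.7%), whereas 51.2% of all protein-coding genes had one. All 8 SMADs and all 4 ID genes had such a peak, as did 9 of 12 receptors, 2 of 3 antagonists and 5 of 10 ligands. The ligands were thus close to the share of all genes. The 9 genes without a peak in this window were the ligands *Bmp4*, *Bmp5*, *Bmp7*, *Tgfb2* and *Inhbb*, the receptors *Acvrl1*, *Eng* and *Tgfbr2*, and the antagonist *Grem1*. With a window of 10 kb the count was 31 of 37, against 59.6% of all protein-coding genes. No lost peak lay within 100 kb of a TSS of any of the 37 genes. The whole list held only 106 lost peaks, and the share of all protein-coding genes with one that near was not computed. The nearest was 624518 bp from a TSS of *Bmp6*.

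**Figure D1:**
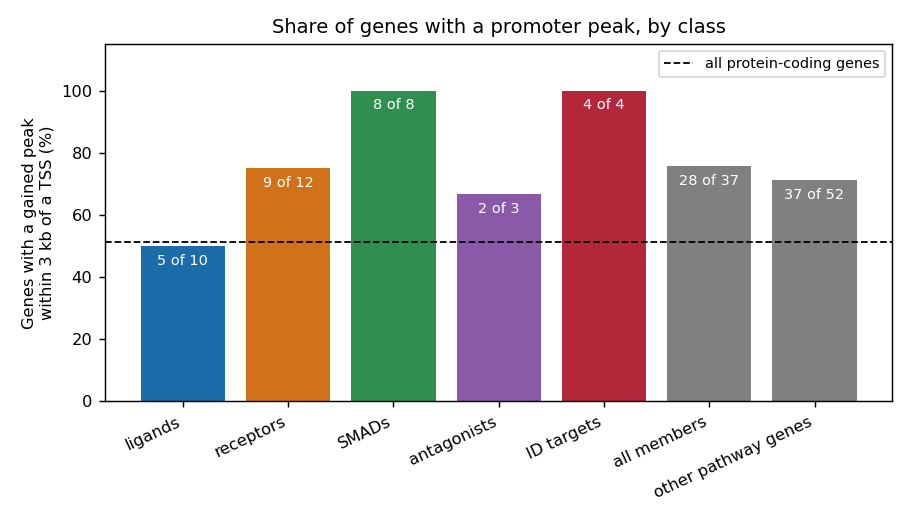
Percentage of genes with a gained peak within 3 kb of a TSS (vertical axis) for the 5 classes, for all 37 genes and for 52 other genes of the pathway, with counts written in the bars. The dashed line marks 51.2%, the share of all protein-coding genes. SMADs and ID genes stand at 8 of 8 and 4 of 4, and the ligands at 5 of 10 stand beside the line.

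By median score, the ID genes and the SMADs stood above the other classes. The strongest peak within 3 kb of a TSS had a median score of 809.5 units over the 4 ID genes, 611.5 units over the 8 SMADs and 569.5 units over the 9 receptors with a peak. It was 359 units over the 5 ligands and 310.5 units over the 2 antagonists. The classes overlapped, with strongest peaks from 57.5 to 984.5 units over the SMADs and from 364.5 to 1481 units over the receptors. Over all 28 genes the median was 481.8 units, near the 460.5 units of all protein-coding genes with such a peak, and 17 of the 28 reached that value. A peak at or above the median score of the whole list, 180.5 units, was found within 3 kb of a TSS for 27 of the 37 genes, against 45.4% of all protein-coding genes. The gene with only a weaker peak was *Smad5*.

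**Figure D2:**
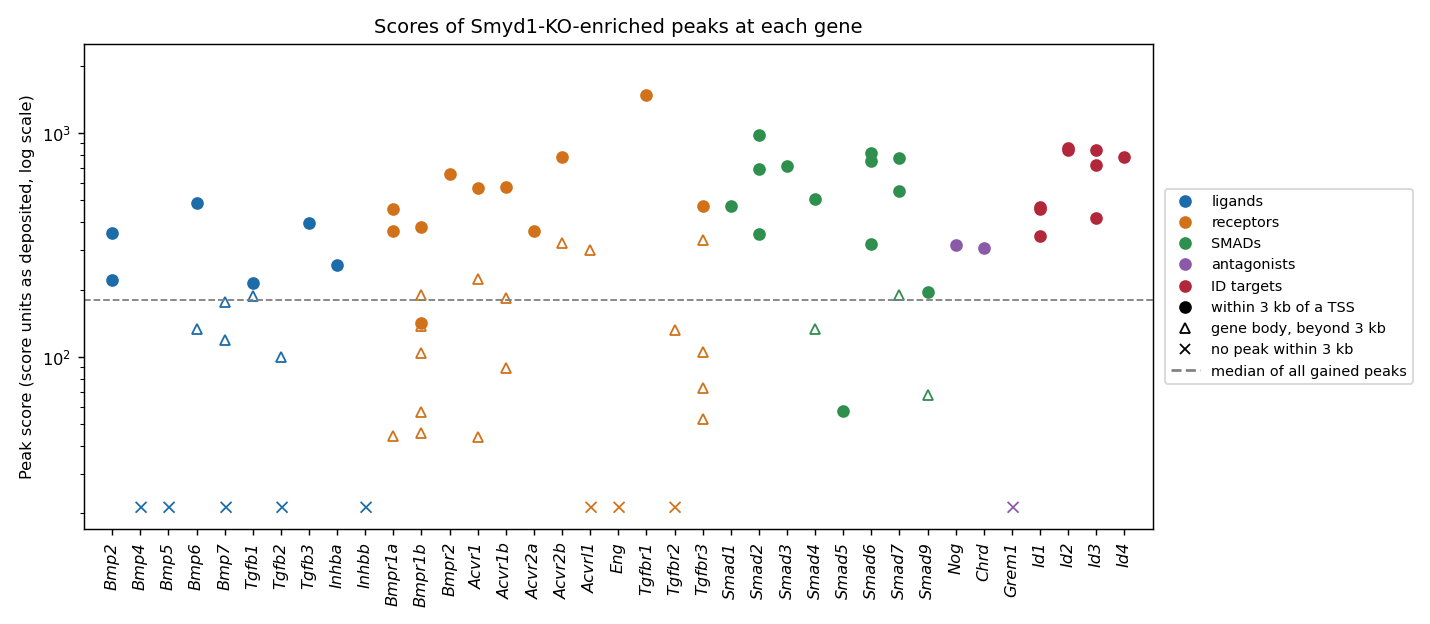
Score of each gained peak in score units (vertical axis, log scale) at each of the 37 genes (horizontal axis), coloured by class. Filled circles are peaks within 3 kb of a TSS, open triangles are other peaks inside the gene, crosses mark genes with no peak within 3 kb, and the dashed line is the median of all gained peaks at 180.5 units. *Tgfbr1* is highest at 1481 units, and the circle of *Smad5* is lowest at 57.5 units.

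The ID genes encode helix-loop-helix proteins that lack a basic DNA-binding region and hold back basic helix-loop-helix factors. Peaks stood both at their TSSs and on their flanks. *Id1*, on chromosome 2, had a peak 2 bp upstream of its TSS with 470 units. Another peak 1005 bp upstream had 459 units and one 2938 bp downstream of the TSS, beyond the end of the short gene, had 348.5 units. The weakest lay 6354 bp upstream with 146 units. *Id2*, on chromosome 12, had 860.5 units in a peak in its 5′ UTR and 838 units in a peak 1627 bp upstream, which were nearly equal, and 409.5 units in a peak 3576 bp downstream of its nearest TSS. *Id3*, on chromosome 4, had 840 units in a peak in its 5′ UTR, between flanking peaks of 417.5 units (2943 bp upstream) and 720.5 units (2893 bp downstream). *Id4*, on chromosome 13, had 1 such peak, 245 bp upstream, with 779 units. At least 2 gained peaks within 3 kb of a TSS were found for 3 of the 4 ID genes and for 9 of the 37 genes, against 11.8% of all protein-coding genes. At least 3 were found for *Id1*, *Id3*, *Smad2* and *Smad6*, against 2.16% of all protein-coding genes. These counts include peaks just inside the window, and without them *Id1* would have 2 peaks and *Id3* 1.

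The sequences of these peaks were searched on both strands for short strings known from SMAD binding. Receptor-regulated SMADs of the BMP branch are known to bind GC-rich boxes such as GGCGCC, and SMAD4 the string GTCT, and in BMP response elements of ID genes the pair stands at a fixed spacing. The spaced element searched here was GGCGNC followed, after any 5 bases, by GTCT. It was present in 4 of the 41 promoter peaks of the 37 genes, those up to 3 kb from a TSS (9.76%), in 0.148% of all 25745 gained peaks, and in 0.264% of the gained peaks no farther than 3 kb from a protein-coding TSS. In RefSeq promoters, from 250 bases before to 50 after the start, it was in 0.303% of all protein-coding ones. It was in 0 of 32 promoters that covered 27 of the 37 genes. This window does not reach the 4 peaks, which lie at least 1005 bp from a TSS, so it could not hold their matches. All 4 were flanking peaks of ID genes, 1 at *Id1*, 1 at *Id2* and 2 at *Id3*, and no peak of *Id4* within 3 kb of a TSS held it. The element is known from ID genes, which are among the 37, so these shares describe where it lay and are no independent support for a link to the group. It was in 38 gained peaks in all, whose nearest protein-coding TSSs were those of 37 different genes or gene pairs, and *Id3* was the only one with 2 such peaks. The remaining 1 of these peaks with one of the 37 genes as nearest lay outside *Smad6*, 97523 bp from its TSS, with 271.5 units. A match is a description of the letters in a peak and does not show that a protein was bound there.

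The 5 peaks are printed because they carry the element, which is in capitals. They were read from the GRCm38.p6 genome, which has the mm10 sequence, and each is given 5′ to 3′ on the strand of its gene, on which all 5 elements read from GGCG to GTCT. The peaks lie at chr2:152735098-152735246 (plus strand), chr12:25098767-25098915 (minus strand), chr4:136140406-136140554 and chr4:136147867-136148015 (both plus strand) and chr9:63919316-63919464 (minus strand), in this order. None of the 5 overlaps an annotated gene.
*Id1*, 1005 bp upstream: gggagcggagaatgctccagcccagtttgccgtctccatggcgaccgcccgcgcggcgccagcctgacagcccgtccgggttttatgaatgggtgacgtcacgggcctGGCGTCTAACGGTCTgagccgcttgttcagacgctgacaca
*Id2*, 1627 bp upstream: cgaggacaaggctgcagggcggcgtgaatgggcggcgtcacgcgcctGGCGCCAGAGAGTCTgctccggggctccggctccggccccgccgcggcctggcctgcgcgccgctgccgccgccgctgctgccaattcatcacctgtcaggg
*Id3*, 2943 bp upstream: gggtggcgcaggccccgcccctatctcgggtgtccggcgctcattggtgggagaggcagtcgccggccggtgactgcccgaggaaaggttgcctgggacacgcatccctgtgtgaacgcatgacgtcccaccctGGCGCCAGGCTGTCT
*Id3*, 2893 bp downstream: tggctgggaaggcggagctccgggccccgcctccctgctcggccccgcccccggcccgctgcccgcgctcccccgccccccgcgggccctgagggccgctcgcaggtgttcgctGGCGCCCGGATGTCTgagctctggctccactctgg
*Smad6*, 97523 bp from the TSS: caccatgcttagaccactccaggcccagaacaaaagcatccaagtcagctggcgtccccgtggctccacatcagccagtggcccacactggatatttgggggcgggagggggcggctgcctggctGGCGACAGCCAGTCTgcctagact

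For comparison, the strongest peak of *Id4* is given with its GGCGCC in capitals, since it holds the GC-rich box without GTCT at that spacing. It lies upstream of the gene at chr13:48260835-48260983 (plus strand). On the minus strand this interval is inside the noncoding genes *A330033J07Rik* and *Gm49291*.
*Id4*, 245 bp upstream: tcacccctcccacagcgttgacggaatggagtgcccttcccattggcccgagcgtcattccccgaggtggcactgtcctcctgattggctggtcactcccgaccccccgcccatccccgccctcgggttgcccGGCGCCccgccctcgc

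**Figure D3:**
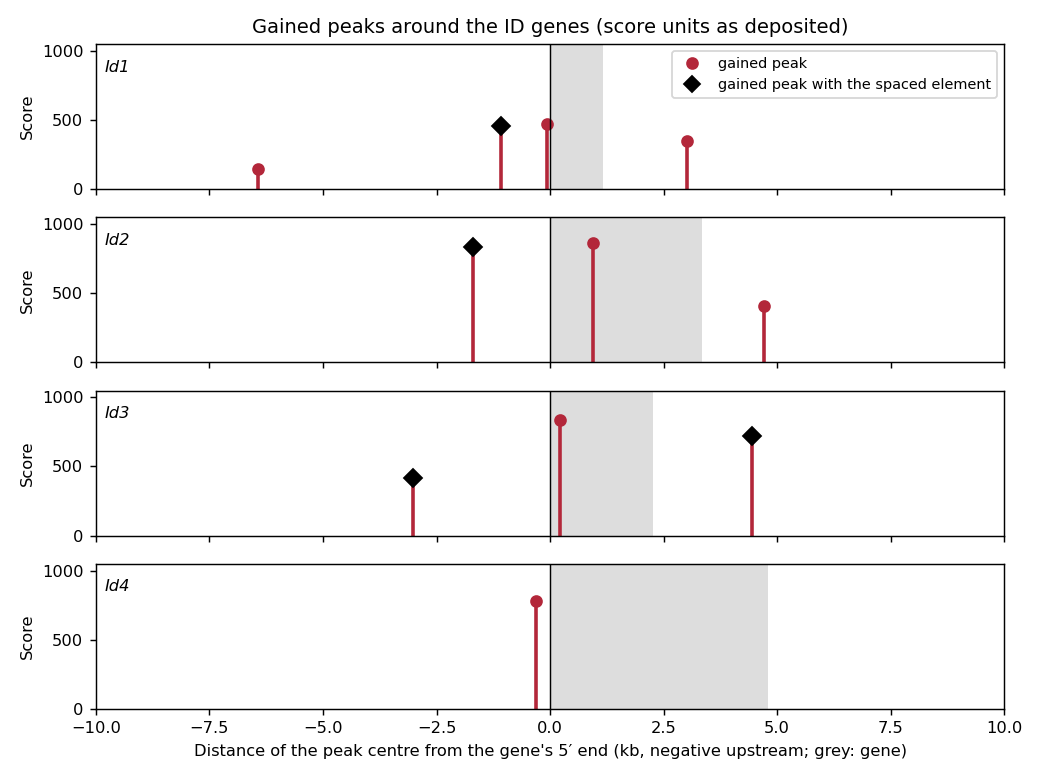
Score in score units (vertical axes) of the gained peaks around *Id1*, *Id2*, *Id3* and *Id4*, placed by the distance of the peak centre from the 5′ end of the gene in kb, with negative values upstream and the gene shaded grey. Black diamonds mark the 4 peaks with the spaced element, which flank *Id1*, *Id2* and *Id3*, and circles mark the other peaks.

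The box GGCGCC alone was less particular to a class. It was in 5 of 9 such peaks of ID genes, 5 of 13 of SMADs and 5 of 11 of receptors, and in none of the 6 of ligands or the 2 of antagonists. In all it was in 36.6% of the 41 peaks, in 15.0% of the promoter peaks of all protein-coding genes and in 9.24% of all gained peaks. The GC content of these peaks differed in the same direction, with a median of 70.5% in the 41 peaks and 65.8% in those of all protein-coding genes, while the median CpG ratio did not (0.752 and 0.770). The part of base composition in the counts was not tested. The short string CAGAC, which reads GTCTG on the other strand and is known as a SMAD box, was in 13 of the 41 peaks and in 28.4% of those of all protein-coding genes. The SP1-type string GGGCGG was in 26 of the 41 and in 50.4%.

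SMADs act as receptor-regulated, shared or inhibitory members, and each kind had gained peaks. Among the SMADs of the BMP branch, *Smad1* had 473 units in its 5′ UTR, 18 bp from a TSS, and *Smad9* had 196 units in an intron, 472 bp downstream of its TSS. *Smad5* stood apart, with only a peak of 57.5 units in an intron 2501 bp downstream of the TSS of a noncoding transcript, a score that 1.10% of the protein-coding genes with a peak did not exceed. No gained peak was found at the 5′ end of *Smad5*, although its promoter is rich in CpG (observed to expected ratio 1.002).

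The TGF-β branch SMADs had stronger peaks. *Smad2* had 984.5 units 254 bp upstream of a TSS, and 691 and 354 units in peaks 13 and 33 bp from TSSs further along. *Smad3* had 716.5 units 122 bp upstream. *Smad4*, the partner shared by both branches, had 506.5 units 66 bp upstream and 133.5 units in an intron. The promoters of these 3 genes are rich in CpG too, with ratios from 0.907 (*Smad3*) to 1.14 (*Smad2*).

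The inhibitory SMADs, which are themselves induced by the pathway and dampen it, had several strong peaks each. *Smad6* (chromosome 9, minus strand) had 816.5 units over its TSS, 754 units 875 bp upstream and 319.5 units at an internal TSS. *Smad7* (chromosome 18, plus strand) had 771.5 units 812 bp upstream, 551 units 176 bp upstream and 190 units in an intron. This pair also had the most peaks far from protein-coding TSSs among the SMADs. Counting peaks more than 10 kb from every protein-coding TSS and assigning each to its nearest protein-coding gene, *Smad7* had 7 with up to 633.5 units and *Smad6* had 5 with up to 917.5 units. The 7 include the intronic peak of *Smad7*. The strongest of *Smad6* lay 23205 bp from its TSS (64045264 to 64045412) and exceeded the peak over the TSS. *Smad2* had 4 such peaks of at most 252.5 units, *Smad3* 2 and *Smad4* 1, while *Smad1*, *Smad5* and *Smad9* had none.

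Receptors had a peak close to the TSS in 9 of 12 cases, and in each of these 9 genes the strongest peak lay within 113 bp of a TSS. *Tgfbr1*, the type I receptor of TGF-β, had the highest score of all 37 genes, 1481 units in 1 peak 25 bp upstream, which 99.4% of the protein-coding genes with a peak did not exceed. Its co-receptor *Tgfbr3* (betaglycan) had 474 units at the TSS, and its type II receptor *Tgfbr2* had no peak within 3 kb. The activin receptors followed, with 782 units at *Acvr2b*, 572 units at *Acvr1b* and 364.5 units at *Acvr2a*. The BMP receptors were in the same range. *Bmpr2* had 658.5 units over its TSS, *Bmpr1a* had 457 and 365 units in 2 peaks at neighbouring TSSs, and *Bmpr1b* had 379.5 and 142.5 units at 2 TSSs far apart. *Acvr1* had 569.5 units in a peak 113 bp upstream that also covers a TSS of *Upp2*.

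The *Tgfbr1* peak is printed as the strongest at any of the 37 genes. It lies just upstream of the gene at chr4:47353049-47353197 (plus strand), and GGGCGG is in capitals. It holds GGGCGG at 2 places and neither GGCGCC nor the spaced element.
*Tgfbr1*, 25 bp upstream: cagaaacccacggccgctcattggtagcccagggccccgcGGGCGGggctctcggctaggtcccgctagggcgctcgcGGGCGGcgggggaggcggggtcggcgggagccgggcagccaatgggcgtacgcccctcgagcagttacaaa

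The receptors without a promoter peak were *Acvrl1*, *Eng* and *Tgfbr2*. *Acvrl1* and *Eng* (endoglin) encode the endothelial type I receptor and co-receptor for circulating BMPs. *Acvrl1* had 1 intronic peak of 301.5 units, 3598 bp from the nearest of its 10 TSSs and so just outside the window. *Eng* had no gained peak in its body or nearby, the closest being 14655 bp from a TSS. *Tgfbr2* had 1 intronic peak of 132.5 units, 39889 bp from a TSS. Among markers of other cells of the heart, a peak within 3 kb of a TSS was found for 2 of 7 endothelial genes, at 165.5 units (*Nfatc1*) and 79.5 units (*Tek*), and for none of *Pecam1*, *Cdh5*, *Kdr*, *Tie1* and *Emcn*. It was found for 1 of 6 erythroid genes (*Klf1*, 677.5 units) and 2 of 4 epicardial genes (*Wt1*, 221.5 units, and *Tbx18*, 338.5 units). These counts stand beside 51.2% of all protein-coding genes and 9 of 10 cardiomyocyte markers. The median promoter CpG ratio was 0.31 over the endothelial markers, where it was 1.05 at *Nfatc1* and 0.773 at *Kdr*, and 0.398 over the cardiomyocyte markers. The range from 0.2 to 0.4 had a peak in 15.4% of all protein-coding genes, and that from 0.6 to 0.8 in 69.1%. The part of cell type in the result at these receptors was not tested.

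The ligands were divided. *Bmp6* had 489.5 units over its TSS, *Tgfb3* 398 units 393 bp upstream, and *Bmp2*, which the myocardium of the atrioventricular canal is known to express, 359 units over its TSS and 221.5 units in an intron. *Inhba*, a subunit of activin A, had 257 units in its 5′ UTR and *Tgfb1* had 215 units over its TSS, the lowest of the ligands with a peak. Peaks upstream of *Tgfb1* (571 units, 6112 bp) and *Tgfb3* (177 units, 3453 bp) cover TSSs of the neighbouring genes *B9d2* and *Ift43*.

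Of the ligands without a promoter peak, *Bmp4* had 1 peak of 99.5 units 7646 bp upstream, *Tgfb2* had 1 intronic peak of 99.5 units 4745 bp from a TSS, and *Bmp7* had 2 intronic peaks of 176 and 119.5 units. *Bmp5* and *Inhbb* lacked peaks in the gene and up to 10 kb away, and their nearest gained peaks were 73412 and 36081 bp from a TSS. *Tgfb2* and *Bmp7* also had gained peaks far from any protein-coding TSS. Of the peaks more than 10 kb from every protein-coding TSS, *Tgfb2* was the nearest gene to 7, with 56.5 to 245 units. *Bmp7* was the nearest gene to 6, which include its 2 intronic peaks above. The strongest of the 6 had 627 units at 172863092 to 172863240 on chromosome 2, outside the gene and 76852 bp from its TSS. *Bmp2* was the nearest gene to 9, all weak (40 to 106 units) and spread from 35726 to 465044 bp on either side of the gene.

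The antagonists bind ligands outside the cell. *Nog* (noggin) had 315.5 units in a peak 1144 bp upstream and a stronger peak of 434.5 units 3790 bp downstream of its TSS, beyond the end of the gene. *Chrd* (chordin) had 305.5 units over its TSS. *Grem1* (gremlin) lacked a peak in its body, and the nearest was 70334 bp away.

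Most promoter peaks were close to the TSS. Of the 41 peaks within 3 kb, 8 covered a TSS and 31 lay within 500 bp of one, with 23 upstream and 10 downstream. Their median score was 473 units, with a range from 57.5 to 1481, beside 395 units for the promoter peaks of all protein-coding genes. For 40 of the 41 the nearest protein-coding TSS was that of the gene itself, the exception being the peak shared by *Acvr1* and *Upp2*. Values at the edge of the window were 348.5 units (*Id1*, 2938 bp), 417.5 units (*Id3*, 2943 bp) and 720.5 units (*Id3*, 2893 bp) inside it, and 332 units (*Tgfbr3*, 3386 bp), 177 units (*Tgfb3*, 3453 bp) and 409.5 units (*Id2*, 3576 bp) outside it.

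Inside the genes but beyond 3 kb of their TSSs there were 25 further peaks, all in introns. They belonged to 15 of the 37 genes, against 16.4% of all protein-coding genes, and 8 of these 15 were receptors. The genes were longer than most, with a median length of 39618 bp for the 37 and 17425 bp for all protein-coding genes, and the part of length in this count was not tested. These peaks were weaker than those at promoters, with a median of 132.5 units, a range from 44 to 332 units and 8 of 25 above the median of the list. The corresponding peaks of all protein-coding genes had a median of 89 units. *Bmpr1b* had the most, 5 peaks of 46 to 189 units, followed by *Tgfbr3* with 4 peaks of 53 to 332 units. The 2 strongest were the *Tgfbr3* peak of 332 units and an *Acvr2b* peak of 324 units. The median GC content was 53% in these intronic peaks and the median CpG ratio 0.191, against 0.752 in the 41 promoter peaks, and none held GGCGCC.

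**Figure D4:**
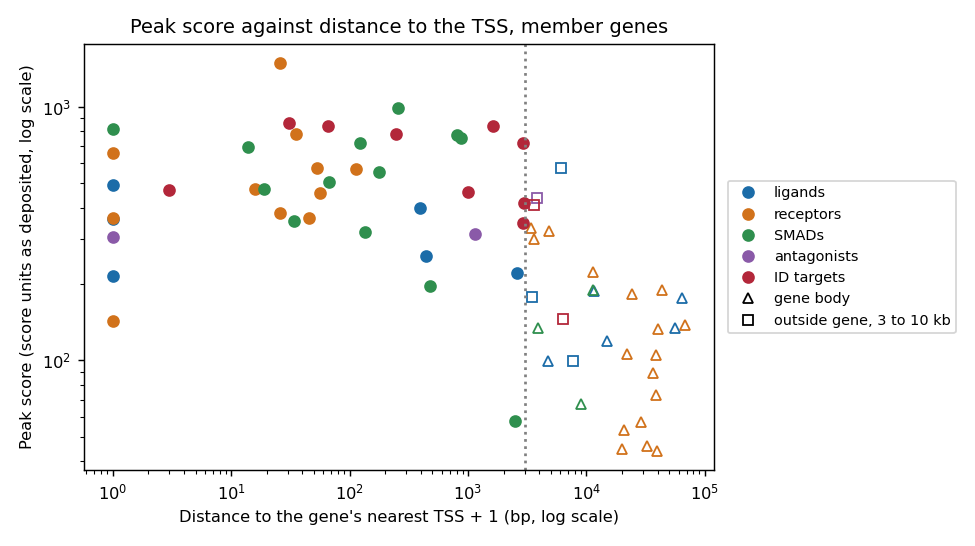
Score in score units (vertical axis, log scale) against distance to the nearest TSS of the gene plus 1 bp (horizontal axis, log scale) for the 72 gained peaks inside the 37 genes or up to 10 kb from their TSSs, coloured by class. Filled circles lie within 3 kb (dotted line), triangles lie inside the gene beyond 3 kb and squares outside it. The triangles reach at most 332 units, and 39 of the 41 circles lie above 180.5 units.

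Peaks more than 10 kb from every protein-coding TSS were assigned to the nearest protein-coding gene. Such a peak was assigned to 23 of the 37 genes (23.7% of all protein-coding genes), and 4 or more to 10 of them (3.13% of all protein-coding genes). Of the 75 peaks, 31 went to ligands, 19 to SMADs, 15 to receptors, 8 to ID genes and 2 to antagonists. Of these, 16 lay inside the gene and are also among the 25 intronic peaks above. The order of the classes thus differed from that at the promoters, where the ligands had 6 peaks and the SMADs 13. These assignments rest on distance alone, and a gene with more gene-free sequence around it can be assigned more peaks. *Id2* had 6, the strongest with 382.5 units, and *Id4* had 2, the stronger with 590 units 33259 bp from its TSS. *Id1* and *Id3* had none.

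Promoter CpG content moved with the presence of a peak. The observed to expected CpG ratio was computed in the 250 bases on either side of each TSS, taking the TSS with the highest ratio of a gene. Its median was 0.925 in the 28 genes with a peak and 0.763 in the 9 without, and 0.84 and 0.318 in all protein-coding genes with and without one. Of the genes with a ratio of 0.8 or more, 20 of 23 had a peak, beside 79.9% of all protein-coding genes in that range. From 0.6 to 0.8 it was 6 of 10 beside 69.1%, and from 0.4 to 0.6 it was 2 of 3 beside 40.1%. If each range had the share of all protein-coding genes, 26.6 of the 37 genes would have a peak, and 28 did. *Bmp5*, with a ratio of 0.337, was the only one of the 37 below 0.4. *Grem1* (0.894), *Bmp7* (0.88) and *Tgfbr2* (0.813) had no peak despite ratios above 0.8.

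**Figure D5:**
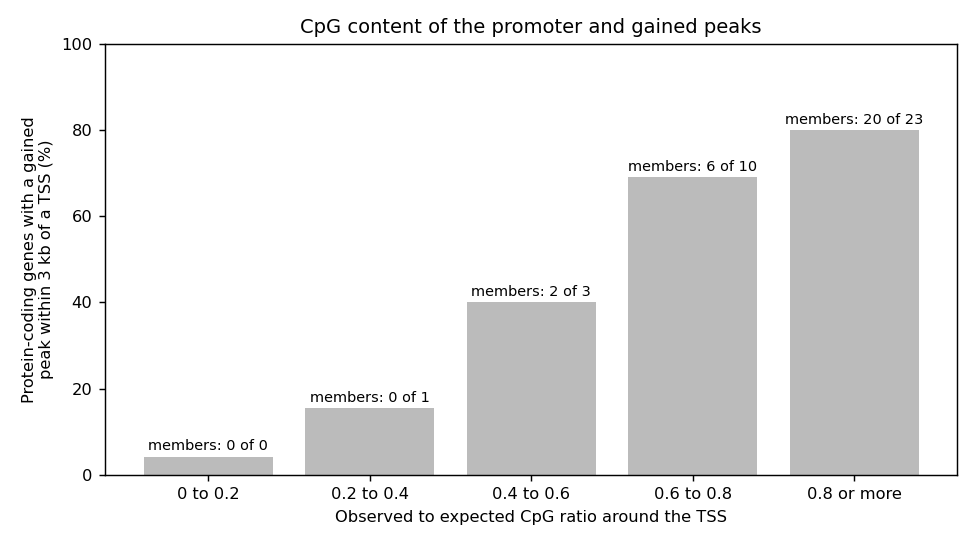
Percentage of all protein-coding genes with a gained peak within 3 kb of a TSS (vertical axis) by observed to expected CpG ratio around the TSS (horizontal axis). The label over each bar counts the genes of the BMP and TGF-β group in that range that had a peak. The share rises from 4.15% below 0.2 to 79.9% at 0.8 or more, where 20 of 23 genes of the group had a peak.

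A list of 52 other genes of the pathway was examined in the same way. Its median promoter CpG ratio was 0.78, beside 0.696 over all protein-coding genes. A peak within 3 kb of a TSS was found for 37 of the 52 (71.2%), beside 51.2% of all protein-coding genes. At least 2 such peaks were found for 7 of the 52 and at least 3 for 1, and a further peak in the gene body for 9, beside 9, 4 and 15 of the 37 and 11.8%, 2.16% and 16.4% of all protein-coding genes. A promoter peak at or above the median score of the list was found for 32 of the 52 and a peak up to 10 kb from a TSS for 40, beside 27 and 31 of the 37 and 45.4% and 59.6% of all protein-coding genes. All 10 intracellular regulators had a peak within 3 kb of a TSS. The scores were 1494.5 units at *Ski* and 1117.5 units at *Skil*, which encode SMAD corepressors. They were 719.5 units at *Smurf1*, which encodes a ubiquitin ligase acting on SMADs and receptors, and 703.5 units at *Tgif2*, which encodes a homeodomain corepressor. Among receptors and co-receptors 5 of 6 had a peak in this window, led by the pseudoreceptor *Bambi* with 1337 units, and *Tdgf1* had none there. Such a peak within 3 kb was found for 12 of 18 extracellular regulators. *Fstl3* led with 704 units before *Bmper* with 482.5 units, and *Cer1* was among those with none. Of the further targets, 3 of 4 had one, with 876.5 units at *Hey1* and none at *Msx1*. Of the other ligands 7 of 14 had a peak in this window, the same share as among the 10 ligands above, with 643.5 units at *Inha* and none at *Nodal*. *Bmp10*, a ligand of the trabecular myocardium that is named here after its value was seen, had 116 units. Each of the 8 SMADs in the first list and of the 10 intracellular regulators in the second had a peak, as did 50% of the ligands in either list. The 8 include *Smad5*, whose only such peak had 57.5 units and lay near the TSS of a noncoding transcript. The median promoter CpG ratio was 0.97 over the SMADs and higher over the intracellular regulators. It was 0.73 over the first 10 ligands and 0.44 over the other 14. At ratios of 0.8 or more 79.9% of all protein-coding genes had a peak. The share was 69.1% from 0.6 to 0.8 and 40.1% from 0.4 to 0.6. The part of CpG content in this contrast was not tested.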

How the data were processed

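ATAC-seq libraries of E9.5 hearts (2 per genotype) were aligned by the authors to mm10 with BWA-MEM, and peaks were called with HOMER 4.10.3 with a 2-fold cutoff for differential peaks. The deposited score was treated as a signal, 1 value per peak for each genotype's list. What it counts, its scaling, and the treatment of duplicate reads, multiply placed reads and the Tn5 offset, are not given in the sources used here and could change which peaks are listed. The methods state a common depth, but the files hold no reads per library or per peak, so no counting interval is given.

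Intervals were read as BED, whose starts count from 0, and are printed counting from 1. If the authors wrote starts counting from 1, each printed start is 1 base too high and each peak and sequence 1 base too short. Distances run from the nearer peak edge to any TSS of the gene in the full GENCODE M21 set, and peaks covering a TSS have distance 0. The peak assignment was tested on simulated positions. Sequences came from GRCm38.p6 and promoters (250 bases before to 50 after the start) from RefSeq, which matched 27 of the 37 genes. Base composition and motif strings were counted with Python 3.11.15 and pysam 0.24.0. All 37 genes are accounted for, and up to 4 other pathway genes per class are named by score or lack of a peak. The genes and lists were chosen with earlier results of these data known. No test was made, because each list pools its libraries and genes are not replicates.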

Additional observations from a re-analysis of the deposited data

How the results depend on the processing

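The counts by class, the median score and the gene-body count (9 results) were recomputed under 6 alternatives: distances of 1 kb and 10 kb, TSSs of protein-coding transcripts, basic transcripts, peaks with scores at or above the list median, and distances from the peak centre. Of the 54 values, 2 moved by over 1.5 times. The median score of 481.8 ranged from 474 to 498. Antagonists with a peak numbered 1 at a distance of 1 kb, where *Nog* is left out by construction. Genes with a gene-body peak numbered 8, in place of 15, with scores at or above the list median, where fewer peaks are counted. The count of 28 genes ranged from 26 to 31. SMADs numbered 7 of 8 at 1 kb, with protein-coding transcripts, with basic transcripts and with scores at or above the list median. No paired analysis was possible because the deposited lists pool the replicates of a genotype, and for the same reason no replicate could be left out. The files hold no reads per library, so whether a gene lacks a gained peak for want of depth was not tested.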
